A study of Drosophila melanogaster with 12 samples.

Results

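Polycomb was profiled in repo+ glia of the Drosophila melanogaster larval central brain by DamID-seq, in which a bacterial adenine methylase (Dam) fused to a chromatin protein marks the GATC sites near the places the protein binds. The profile is the authors' log2 ratio of Dam-Polycomb over Dam only, 1 averaged value per GATC fragment, and every fragment with a glial score was taken. There were 196103 such fragments of 356504 listed (55.0%). In the glial libraries the DamFLP system was used: the recombinase line repoFlp5 removes a stop cassette, so that Dam or Dam-PC is made from a minimal hsp70 promoter in cells that have used the repo driver. Brains without the ventral nerve cord came from wandering larvae of the third instar, males and females pooled, 20 larvae per sample, with 2 samples of Dam-PC and 2 of Dam only. The backdrop was the whole central brain (20 male larvae per sample, 4-HT-intein@L127C system, uninduced) and the fat body (10 male larvae per sample, the same system induced with 25 µM 4-hydroxytamoxifen), again with 2 samples of each fusion. Tissue, DamID system and sex change together between glia and these sources and cannot be told apart, and the brain sample also contains glia.

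Polycomb is a chromodomain protein of a Polycomb repressive complex, which keeps developmental regulator genes silent in cells where they are not used. In flies it is held at Polycomb response elements and spreads over broad domains that cover whole genes and gene clusters. The homeodomain factor Repo is made in nearly all larval glia other than midline glia and is the usual marker of this cell class. DamID reads the methylation left over the time the fusion is present, and it holds no measure of expression, so the glial identity of the cells rests on the driver and was not checked here.

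The glial scores ran from -8.35 to 8.66 with a median of -0.60, quartiles of -1.90 and 0.56, and an SD of 2.12 along the genome. This SD is a spread over fragments and not an error between animals, for which the averaged scores hold no measure. A score above 3 was carried by 11380 fragments (5.80% of those scored) and a score below -3 by 24853 (12.7%). After the profile median was subtracted the counts were 15589 above 3 and 15586 below -3, so the excess of low over high scores is an excess relative to the authors' zero and not relative to the middle of the profile.

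Most of each arm lay below zero. The arm medians were -0.64 on 2L, -0.72 on 2R, -0.57 on 3L, -0.57 on 3R, -1.14 on chromosome 4 and -0.39 on X. The long arms thus differed by far less than the distance between the quartiles of any of them. Chromosome 4, the small and largely heterochromatic chromosome, was the most uneven arm: it had the highest share of fragments above 3 (9.67%) and the highest share below -3 (21.4%) of the 6 arms. Among the long arms, the share above 3 was 7.02% on 3R, which carries both Hox complexes, and 4.74% on 3L. On the heterochromatic scaffolds only 15.0% of 25421 fragments had a score, and there the median was -1.66 with 0.995% of scores above 3.

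**Figure D1:**
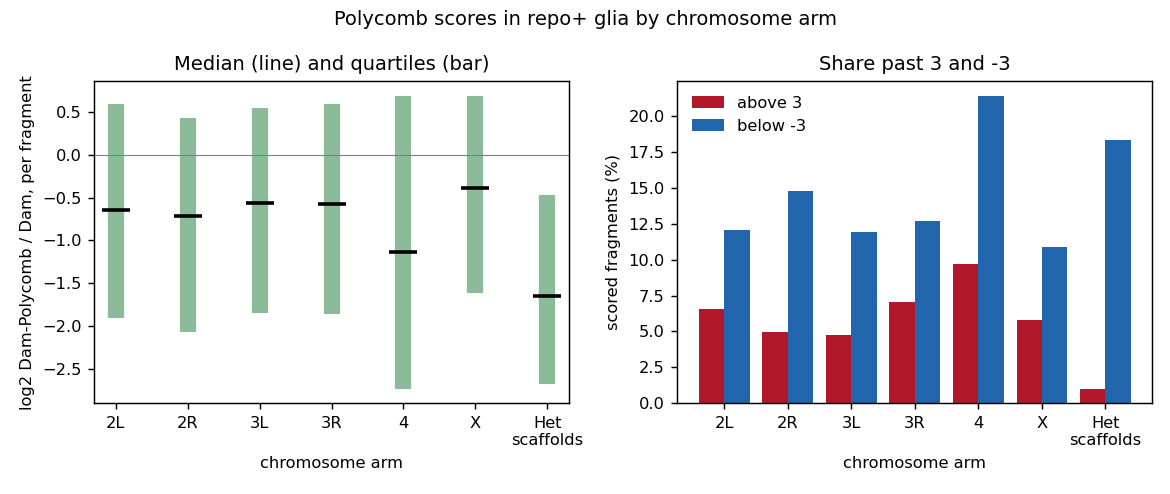
Glial Polycomb scores by chromosome arm, as median and quartiles of log2 Dam-Polycomb over Dam (left) and as the percentage of scored fragments above 3 and below -3 (right). Chromosome 4 has the highest percentages on both sides among the 6 arms, and the heterochromatic scaffolds pooled have almost none above 3.

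Within arms the high scores were clustered. Of the 120 bins of 1 Mb with at least 500 scored fragments, the highest share above 3 was 32.5%, at chr3R:2000001-3000000, which holds the Antennapedia complex. Next was chr3R:12000001-13000000 with 28.7%, which holds the bithorax complex, and then chrX:4000001-5000000 with 22.1%. The lowest share was 0.121% in chr3R:1000001-2000000, directly beside the highest bin. Scores of neighbouring scored fragments had a Pearson correlation of 0.83, which fell to 0.58 at 10 fragments (a median distance of 5.36 kb), 0.28 at 50 fragments and 0.08 at 200 fragments. These are descriptions along 1 averaged profile, since neighbouring fragments share libraries, base composition and domains.

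Short and long fragments did not carry the same share of high scores. Fragments of up to 50 bp were above 3 in 9.13% of cases and below -3 in 3.20%, whereas those above 200 and up to 500 bp were above 3 in 5.64% and below -3 in 16.3%. Only 8.22% of the fragments of up to 50 bp had a score, against 74.3% of the longer class. The part of fragment length in the results that follow was examined only by restricting fragments to 200 to 2000 bp, which is given with the other alternatives.

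Runs were counted as unbroken series of scored fragments on the 6 arms, all past the threshold, with unscored fragments skipped and a break wherever scored neighbours lay over 10 kb apart. On these arms 5.90% of scored fragments were above 3 and 12.6% below -3. Above 3 there were 2921 runs, of which 53.0% were 1 fragment long and 604 had at least 5 fragments; these 604 held 68.4% of the fragments above 3. Below -3 there were 8422 runs, 49.5% of them 1 fragment long, and the 1540 of at least 5 fragments held 52.7% of the fragments below -3. The high side therefore had fewer and longer runs. It had 38 runs of 32 fragments or more, up to 157 fragments, while no low run exceeded 31.

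In kilobases the typical long run was similar on both sides, with a median of 3.72 kb above 3 and 4.51 kb below -3 among runs of at least 5 fragments. The difference lay in the tail, where the longest high run covered 110.7 kb and the longest low run, by fragment count, 22.6 kb. Scores were also denser in the high runs: 69.8% of the fragments listed within them had a score, against 40.0% within the low runs and 58.1% over the 6 arms. When any unscored fragment was made to end a run, 582 high runs remained and only 272 low runs, and the longest were 20 and 10 fragments. The number of low runs and the length of all long runs thus depend on skipping unscored fragments.

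**Figure D2:**
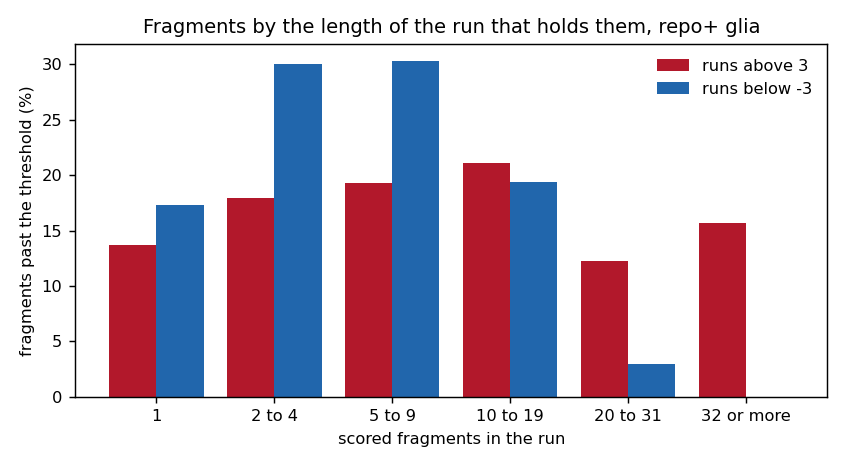
Percentage of the fragments above 3 and of those below -3 (y axis) held in runs of each length in scored fragments (x axis), glia, 6 arms. Runs of 32 or more fragments hold 15.7% of the fragments above 3 and none of those below -3.

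The 10 longest high runs lay in 6 domains. Of these runs, 4 were in the bithorax domain and 2 in the Antennapedia domain. The longest, chr3R:12512778-12623467, had 157 fragments with a mean of 5.07 ± 1.10 (SD along fragments), a lowest score of 3.26 and a highest of 8.43. The others included chr3L:9020662-9039651 in the domain of the Dorsocross genes, T-box factors of the heart and amnioserosa (58 fragments, mean 4.85), and chr3R:11844461-11864319 in the domain of pannier, a GATA factor of dorsal mesoderm and heart (50 fragments, mean 4.78). A run of 53 fragments at chr2R:16774063-16809821 holds none of the usable loci and is given by position only.

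Low runs were spread over all 6 arms. Their median distance to the nearest domain was 69.7 kb, and 9.48% of the 1540 lay within 10 kb of one. The same measures were not taken for all fragments outside domains. These 2 values therefore do not show whether low runs lie nearer to domains or farther from them than other fragments. The longest were chr2R:9742601-9765171 and chr2R:20449110-20467915, with 31 fragments each and means of -4.24 ± 0.82 and -4.44 ± 0.66. The lowest mean among the 10 longest, -5.13 ± 0.84, was at chr3R:6137974-6155543. As a share of scored fragments, low runs took up most on 2R among the long arms (8.55%) and least on X (4.95%); by number, 3R had more fragments in them (3276) than 2R (2971).

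Seen against the other sources, each set to its own median, the glial high runs were high elsewhere too. In runs with at least 3 scores, the median was 6.32 above the profile median in brain, with 558 of 564 runs above it, and 3.68 above in fat body, with 460 of 466 above it. Low glial runs were low in 604 of 626 comparable runs in brain and in 1503 of 1524 in fat body. The brain comparison is thin on the low side, since brain had scores for 29.2% of the fragments of these runs.

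Domains were called with a 3-state hidden Markov model on the glial scores alone, and a domain is a series of at least 5 scored fragments in its top state. The model gave 559 domains covering 12.9 Mb and 13.3% of the scored fragments of the arms. Domain lengths had a median of 10.4 kb and reached 325.3 kb; 270 domains were under 10 kb, while the 68 over 50 kb made up 50.8% of the covered length. Since the call uses the scores, the level inside a domain is a description: the median was 2.68 inside and -0.87 outside, and 384 of the 11342 fragments above 3 on the arms lay outside domains.

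Long domains were also the higher ones. The median of the domain means was 3.35 for domains over 50 kb, 2.02 for those of 10 to 50 kb and 1.77 for those under 10 kb, and the Spearman correlation of length and mean was 0.45 across the 559 domains. The backdrop differed by length class. Over domains under 10 kb the brain median was 0.75 above its profile median, with 52 of 193 domains below it, whereas over those of more than 50 kb it was 5.54 above, with 0 of 68 below. Domains of 10 to 50 kb lay between, 1.74 above in brain. In fat body the order was not the same: the medians were 1.88 above its profile median for domains under 10 kb, 1.66 for 10 to 50 kb and 2.59 for over 50 kb. Edges were steep: at domains of at least 20 fragments the median was 1.74 at the fragment just inside, against 0.40 at the fragment just outside. Over the same 570 edges it was 2.05 at 9 fragments further in; the 2.88 at 19 fragments further in rests on the 358 edges of longer domains. The step at the edge is set in part by the model that placed it.

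The domain with the highest mean and the greatest length was that of the bithorax complex, the Hox genes of the posterior thorax and abdomen. It spanned chr3R:12482603-12807938 and averaged 4.98 ± 1.35 over 440 scored fragments, of which 93.9% were above 3 and 1 was below 0. The same region averaged 6.48 in brain and 2.96 in fat body. Set to each profile's median, it stood 5.58 above in glia, 7.71 in brain and 2.87 in the fat body. The second longest, chr3R:2590739-2889012, was the Antennapedia complex domain, with a mean of 4.15 ± 1.46 over 506 fragments. The labial gene, at the proximal end of that complex, lay in a separate domain of 38.5 kb with a mean of 3.04.

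After the bithorax domain, the highest means belonged to chrX:8500651-8569698 with the head gap gene ocelliless (4.75 ± 1.28), to chrX:17647944-17713875, which holds none of the usable loci (4.70 ± 1.40), and to the Dorsocross domain at chr3L:8994487-9039651 (4.58 ± 1.13). The domain of even skipped, a pair-rule factor, was short (14.0 kb) and averaged 4.44 ± 1.45. The domain of caudal, a posterior homeobox factor, averaged 4.41 ± 1.67 over 28.4 kb. High level and great length were therefore not bound to each other in every case.

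The other domains among the 10 longest had lower means than the bithorax and Antennapedia domains. The domain of caupolican and mirror (158.2 kb, 4.13 ± 1.25) came close to the Antennapedia domain. The domain of homothorax, a selector of proximal appendages, covered 198.7 kb at a mean of 2.90 ± 1.33, and that of spalt major, a zinc finger factor, covered 182.6 kb at 3.14 ± 1.16. The domain at chrX:2851774-3014196 (162.4 kb, 2.27 ± 1.00) was 2.87 above the profile median in glia, against 0.99 above in brain, where its mean was -0.25, and 1.66 above in fat body. The domain at chr2R:2176995-2338181 rests on 42 scored of 497 listed fragments and contains an unscored gap of 74.1 kb, so its length is not a measured continuity. It was 3.17 above the profile median in glia, against 1.69 above in brain (15 scores) and 0.36 above in fat body (12 scores). In the other 8 of the 10 longest domains brain was at least 4.63 above its median.

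Inside domains the level was not flat. A local peak was a maximum of the running mean over 5 scored fragments with a prominence of at least 1.5, the drop to the lowest point that must be crossed to reach a higher peak of the same domain. Besides the highest point of each of the 559 domains there were 306 such inner peaks. In 432 domains (77.3%) the highest point was the only peak, and these had a median length of 7.91 kb. The 127 domains with 2 peaks or more had a median length of 50.0 kb, and 29 of them had 5 or more. Neighbouring peaks were a median of 14.3 kb apart. The valleys between them remained high, with a median of 2.32, 305 of 306 above 0 and 87 above 3. For scale, the scatter taken from differences between neighbouring scores inside domains was 0.83, or 0.37 for a mean over 5 fragments if fragments are independent. Scatter that neighbours share is not in this figure, so it may be too small. The number of peaks depends on the smoothing, and a running mean over 9 fragments left 96 inner peaks.

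The bithorax domain had the most peaks, 12, and the Antennapedia domain had 11. The highest bithorax peak reached 6.85 at chr3R:12592554-12594049, and the other 11 lay between 5.69 and 6.63. The deepest valley of the bithorax domain, 2.18 at chr3R:12758458-12761334, was low relative to its flanks in all 3 sources: brain was 4.24 there, against 7.37 and 7.67 at the flanking peaks, and fat body was 0.02, against 4.30 and 2.28. In the Antennapedia domain the deepest valley, -0.23 at chr3R:2642243-2649399, was likewise 0.71 in brain and -1.04 in fat body. It was the only valley of the 306 below 0.

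**Figure D3:**
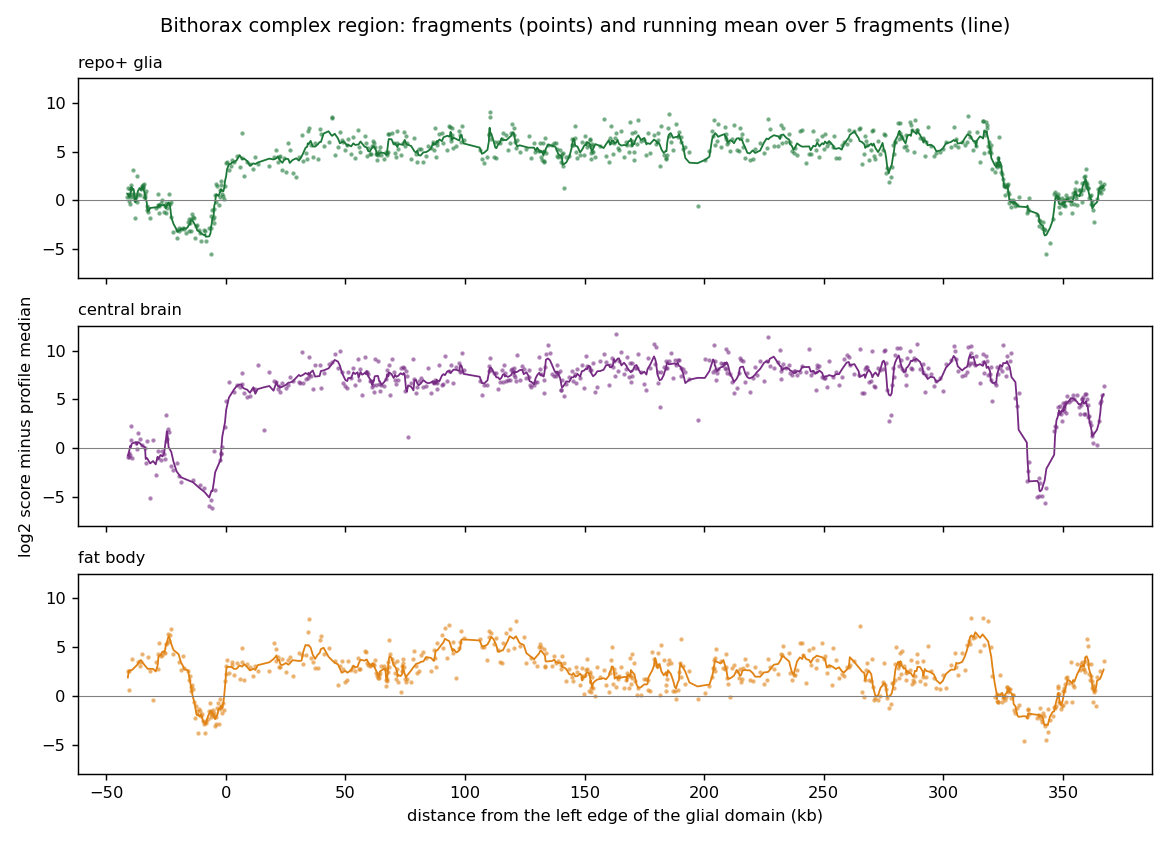
Scores across the bithorax region in glia (top), whole central brain (middle) and fat body (bottom), as log2 score minus the profile median, by distance in kb from the left edge of the glial domain. Points are fragments and lines the running mean over 5 scored fragments; the glial domain runs from 0 to 325.3 kb and the valley near its right end is present in each profile.

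Where it could be compared, at 156 of 306 peak pairs in brain and 55 of 306 in fat body, the shape was largely shared. Of the 156 peak pairs with at least 3 brain scores at each place, the mean of the flanking peaks exceeded the valley by a median of 2.26 in glia and 1.22 in brain, and it was the higher in brain in 134. Over the 55 pairs comparable in fat body the median excess was 2.11 in glia and 1.63 in fat body, with the peaks higher in fat body in 51. The peaks and valleys were picked on the glial scores, so the glial differences are set by the choice and the others are not.

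The highest summit of the profile was 7.55 at chr2L:3531154-3532931, in the domain of odd skipped, a pair-rule zinc finger factor, followed by 7.22 at chr2L:5455111-5458023, away from the usable loci. The summit of the Iroquois domain, with caupolican and mirror, homeobox factors of body patterning, came next with 6.89 at chr3L:12599535-12601507. The most prominent inner peak, at chr3R:2613051-2615196, had a height of 5.77 and a prominence of 6.00, measured to the valley below 0 that lies beyond a lower neighbouring peak. It was in the part of the Antennapedia domain that holds Deformed, the Hox gene of the posterior head. Peaks were centred on fragments with a median length of 279 bp, against 299 bp for all domain fragments.

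Developmental genes were then read in windows of 10 kb on each side of an approximate dm3 position, recalled from general knowledge because no dm3 annotation was at hand. The position was treated as the left end of the gene and strand was not used, so a window need not hold the promoter. The same positions name the domains described above. Of 94 genes listed, 59 had a position that could be used, and 41 of these had at least 50% of the scored fragments of their window in a domain. Among all 20-kb bins of the arms the corresponding share was 10.4%. The mean was above 3 at 28 of the 59 loci, against 4.12% of 20-kb bins, and the median of the locus means was 2.84. The genes were listed because they are known Polycomb targets or patterning regulators, so this describes the list and says nothing particular to it.

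**Figure D4:**
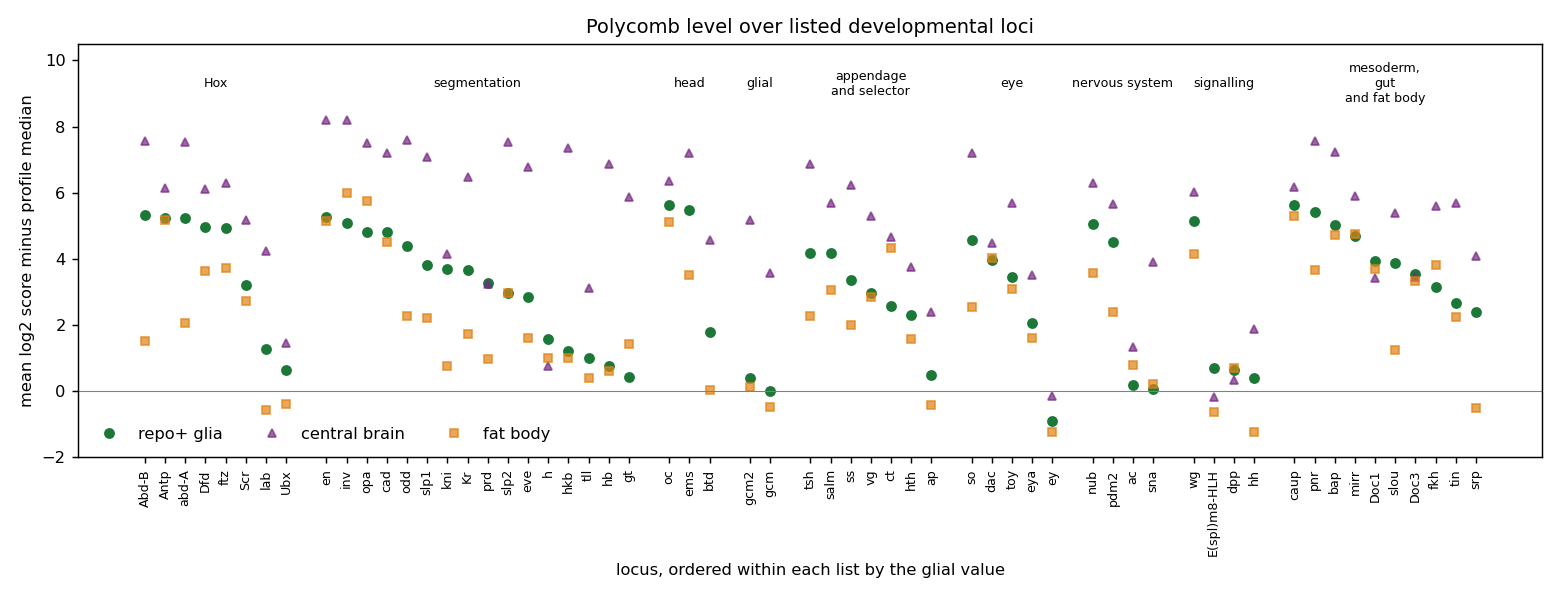
Mean log2 score minus the profile median over the 59 loci, with glia as circles, whole central brain as triangles and fat body as squares, grouped by list and ordered within each list by the glial value. Most glial values lie well above 0, while gcm, gcm2, hb, gt, tll and sna lie within 1 of it and are over 3 in brain.

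The Hox genes were covered nearly throughout, with 7 of 8 in a domain by these windows. Abdominal-B, which specifies the posterior abdomen, averaged 4.71 ± 1.59 in its window (lowest 1.30, median 5.04, highest 6.83, n = 29 fragments), against 6.33 in brain and 1.58 in fat body. Antennapedia, the selector of the thoracic leg segments, averaged 4.64 ± 1.53 (n = 34), abdominal-A 4.62 ± 1.22 (n = 35), Deformed 4.37 ± 1.79 (n = 35), the embedded pair-rule gene fushi tarazu 4.32 ± 0.88 (n = 43) and Sex combs reduced 2.61 ± 1.49 (n = 37). The windows of labial (0.68 ± 3.64) and Ultrabithorax (0.03 ± 2.95) crossed a domain edge, with 66.7% and 31.6% of their fragments inside, and their means mix both sides. The Ultrabithorax window lay across the left edge of the bithorax domain and does not describe the whole gene. With a window of the gene and 5 kb on each side, Ultrabithorax was in a domain.

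The segmentation genes fell into a covered and an uncovered group. In a domain were 11 of 16, led by engrailed, the posterior compartment selector, with 4.65 ± 1.10 (n = 47), and its neighbour invected with 4.49 ± 1.25 (n = 46). Brain averaged 6.97 at both, and fat body 5.22 and 6.07. Set to each profile's median, fat body stood 5.13 above at engrailed and 5.98 at invected, against 5.24 and 5.09 in glia. At the other end were the gap genes giant (-0.19 ± 1.01, n = 46) and hunchback (0.15 ± 0.93, n = 38). No fragment of either window was above 3 in glia, and the highest were 2.41 at giant and 2.20 at hunchback. Over the same windows brain averaged 4.63 at giant and 5.63 at hunchback, and fat body 1.50 and 0.67. Among the head gap genes, ocelliless averaged 5.03 ± 1.31 and empty spiracles 4.88 ± 1.39, while the window of buttonhead (1.17 ± 4.14) lay across a domain edge.

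The glial regulators gcm and gcm2, zinc finger factors that start the glial fate in the embryo, were not in a domain by the measure used. The gcm window averaged -0.62 ± 2.10 in glia (lowest -5.36, median -0.55, highest 4.07, n = 55), against 2.32 in brain and -0.41 in fat body. The gcm2 window averaged -0.22 ± 1.37 in glia (n = 59), against 3.92 in brain and 0.19 in fat body. Small domains of 6.14 kb and 2.18 kb lay within this neighbourhood, with means of 1.65 and 2.03. Over the 35 kb that contain both of them, from 5 kb left of the larger one's left edge to 30 kb right of it, glia averaged 0.44 ± 1.14 with 1.83% of 109 fragments above 3, brain 4.41 ± 1.32 with 81.6% of 87 fragments above 3, and fat body 0.91 ± 1.06 with none of 40. That stretch was set after the profiles had been plotted. The positions of repo and pointed, the other glial genes listed, could not be used.

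**Figure D5:**
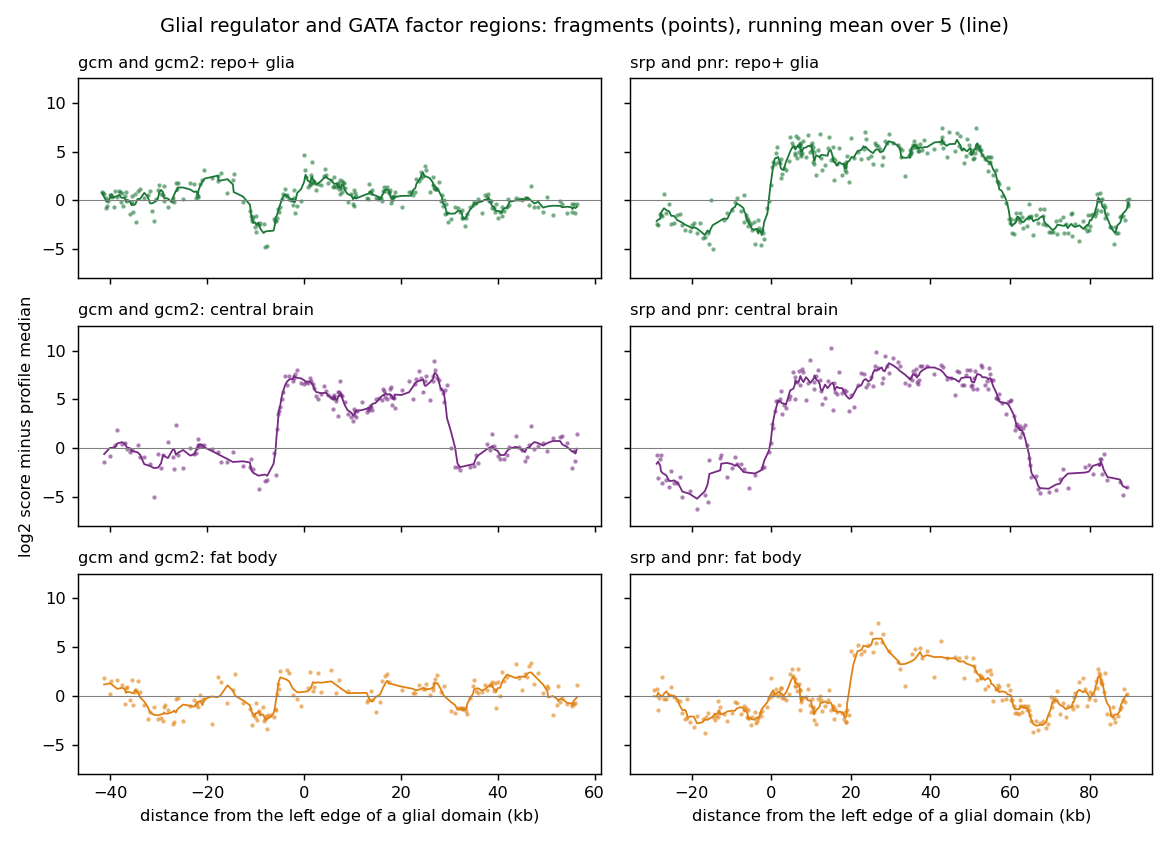
Scores as log2 minus the profile median, by distance in kb from the left edge of a glial domain, for glia (top), brain (middle) and fat body (bottom), around gcm and gcm2 (left column) and around serpent and pannier (right column). Points are fragments and lines the running mean over 5; near gcm the high plateau appears in brain only, and in the right column the left 20 kb of the glial domain are high in glia and brain and near 0 in fat body.

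Loci with this pattern, over 3 above the profile median in brain and less than 1 above it in glia, numbered 6 of 59: hunchback, giant, tailless, gcm, gcm2 and snail. Tailless met both cuts narrowly (3.10 in brain, 0.998 in glia), and huckebein fell just outside (7.35 and 1.20). The share of all 20-kb bins with this joint pattern was not counted, so the 6 loci have no background to be set against. Hunchback, giant and tailless are gap genes of the early embryo, but the pattern was not shared by all gap genes listed. The windows of Kruppel and knirps lay wholly in glial domains. They stood 3.65 and 3.69 above the profile median in glia, and 6.48 and 4.14 above it in brain. No locus had the reverse relation of over 3 in glia and under 3 in brain. Brain values have a wider spread throughout (SD 2.12 in glia and 2.79 in brain), and 20-kb bins over 3 above the profile median made up 5.26% of the glial, 10.4% of the brain and 3.06% of the fat body bins, so equal distances from the median are not equal ranks. No test between the sources was possible with 1 averaged value each.

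Appendage and eye genes were mostly covered. Teashirt, a trunk selector, averaged 3.58 ± 1.00 (n = 59) and spalt major 3.56 ± 0.83 (n = 48), with every fragment of both windows in a domain. The window of homothorax lay wholly in its long domain and averaged 1.69 ± 0.71 (n = 31), against 2.90 over that whole domain. Elsewhere in the homothorax domain the running mean over 5 fragments reached 6.32, so this window does not give the level of the whole locus. The window of apterous, the dorsal wing selector, averaged -0.12 ± 2.44 with 48.1% in a domain. Of the eye genes, sine oculis (3.97 ± 1.18, n = 61) and dachshund (3.37 ± 0.89, n = 54) were highest. The eyes absent window averaged 1.46 ± 1.91. The eyeless window, on chromosome 4, averaged -1.53 ± 2.52 (n = 39) with 12.8% of its fragments in a domain, and this was the lowest mean of the 59. With windows of the gene and 5 kb on each side, apterous, eyes absent and eyeless were in a domain.

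Only 4 of 19 nervous system genes had a usable position. The POU factors nubbin (4.45 ± 1.49, n = 36) and pdm2 (3.90 ± 0.91, n = 41) shared a domain of 138.8 kb. Achaete, a proneural factor, averaged -0.44 ± 0.94 and snail, a zinc finger factor of mesoderm and neuroblasts, -0.55 ± 0.91, and neither had a fragment above 3. Among signalling genes the Wnt ligand wingless averaged 4.54 ± 1.48 (n = 47), whereas the windows of the Notch target E(spl)m8-HLH (0.09 ± 1.82), the BMP ligand decapentaplegic (0.03 ± 1.44) and hedgehog (-0.22 ± 3.21) were each in a domain over less than 50% of their fragments. With windows of the gene and 5 kb on each side, decapentaplegic and hedgehog were in a domain.

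All 10 usable loci of the list for mesoderm, gut and fat body were in a domain by these windows. This list also holds caupolican and mirror, described above as factors of body patterning. Caupolican averaged 5.03 ± 1.41 (n = 37) and pannier 4.81 ± 0.88 (n = 41), while tinman, the heart factor, averaged 2.06 ± 3.55 in a window that crossed an edge. The window of serpent, the GATA factor of fat body and blood, also crossed an edge. It averaged 1.80 ± 3.54 in glia (n = 64), with 65.6% of its fragments in a domain. Serpent and pannier were assigned to the domain chr3R:11809968-11867330. Its left 20 kb, towards serpent, averaged 4.00 ± 1.18 in glia (n = 61), against 4.71 ± 1.70 in brain (n = 41) and -0.30 ± 1.34 in fat body (n = 57), where no fragment was above 3. From 20 to 57 kb, towards pannier, glia averaged 4.53 ± 1.05, brain 6.05 ± 1.10 and fat body 3.58 ± 1.79. The division at 20 kb was read off the plotted profiles.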

How the data were processed

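Methylated DNA was amplified by PCR and then sheared for sequencing, per the labels. Tools credited in the submitters' processing notes are cutadapt, Bowtie2 and HTSeq, with reads placed on dm3 and no versions stated. Each deposited score is a log2 ratio of Dam-Polycomb over Dam only for 1 GATC fragment, already a replicate average made by the authors, per the file headers. Read counts and separate replicates were not analysed here: the depth is unknown, errors between animals cannot be given, and tests were not run. The rule for leaving fragments unscored was not stated in the labels or the header. Coordinates are dm3, counted from 1.

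The profile, the loci and the lists were chosen with earlier results of these data known. Domains came from a 3-state hidden Markov model (Student t emissions, 4 degrees of freedom, Viterbi path). The code was run on data simulated from the fitted model itself, which checks the code and not the choice of 3 states. The regions named were the 10 highest and 10 longest domains, the 10 longest runs on each side, the 10 most prominent peaks and, per gene list, the 2 highest and 2 lowest loci with all Hox and glial genes; only some of these are printed, and others named were chosen after their values were seen.

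No dm3 annotation was at hand. Gene positions in dm3 were recalled from general knowledge, are approximate and are not printed. They were treated as left ends of genes, without regard to strand. Symbols and gene order were compared with the Release 6 RefSeq gene table, and a gene was used where its order fitted (88 of 94) and its distance from the arm's other listed genes differed by at most 10 kb (59). The distance criterion goes beyond the order check planned and was added after the differences were seen; gene-length windows were tried first and replaced after their values were seen. No coordinate was carried between builds. Python 3.11.15, numpy 2.4.6, pandas 2.3.3 and scipy 1.17.1 were used.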

Additional observations from a re-analysis of the deposited data

How the results depend on the processing

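Counts moved with thresholds and smoothing. With fragments of 200 to 2000 bp there were 6746 fragments above 3 and 368 high runs, and the arm medians were -0.84 (2L), -0.91 (2R), -0.75 (3L), -0.75 (3R), -1.36 (chromosome 4) and -0.53 (X). With the profile median subtracted, 15586 fragments were below -3. High runs numbered 344 at a threshold of 4 and 974 at a minimum of 3 fragments. Low runs numbered 2626 at -2, 381 at -4, 272 when unscored fragments end a run and 2852 at a minimum of 3 fragments. Domains numbered 1952 with 2 states, which put 57.4% of fragments in them, and 319 as running means over 11 fragments above 2. Inner peaks numbered 96 with a 9-fragment mean, 612 at a prominence of 1 and 145 at 2. Loci in a domain were 44 of 59 with windows widened by 10 kb and 41 with the running-mean domains. Added after seeing the data, the order check alone gave 59 of 88, spacing within 5 kb 36 of 53, within 20 kb 49 of 70, and gene-length windows 47 of 59. Gene-length windows bring Ultrabithorax, apterous, decapentaplegic, eyeless, eyes absent and hedgehog into a domain, so the status of these loci depends on the window. No paired analysis was possible because the deposited scores are averages over replicates, and for the same reason no replicate could be left out. Many of the most frequent scores lie 0.5 apart, so single fragments may be coarse, and unscored fragments leave low runs and short fragments least well covered. The approximate gene positions limit every locus value, most of all where a window crosses a domain edge.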
